A study of Mus musculus with 34 samples.

Results

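Macrophages grown from the bone marrow of mice lacking interleukin-10 were compared with wild-type macrophages 45 min after lipopolysaccharide (LPS), the bacterial cell wall component that triggers Toll-like receptor 4. All arrays whose titles give the genotype IL-10-/- or Wild type and the time T45 were taken, which gave 12 of the 34 arrays of the series, 6 per genotype. Each genotype held 3 treatment arms of 2 arrays, which were LPS alone at 100 ng/ml, LPS with IL-10 at 10 ng/ml, and LPS with IL-6 at 2 ng/ml. The cells had been grown for 7 days in macrophage colony-stimulating factor (CSF-1) and rested for 1 h. The question was how far the genotypes differed early after LPS, averaged over the arms. The titles were used for the arm, since the treatment field names LPS only for 6 arrays, the 4 with IL-10 and the 2 knockout arrays with IL-6. The labels do not give the strain, the age or the sex of the mice, nor which part of the gene the knockout lacks. The titles call the 2 arrays of a group biological replicates without saying whether they came from separate mice, so a p-value here reflects array-to-array spread, which may be technical. Genotype and any difference in culture, breeding or hybridisation between the cells of the 2 genotypes cannot be told apart here. Below, knockout means an array labelled IL-10-/-.

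IL-10 is an anti-inflammatory cytokine that macrophages themselves secrete after LPS. It binds a receptor of the chains IL-10R1 (Il10ra) and IL-10R2 (Il10rb), which act through the Janus kinases Jak1 and Tyk2 on the transcription factor STAT3. Targets of STAT3 include Socs3, Bcl3 and Nfil3. Through STAT3, IL-10 limits the production of tumour necrosis factor, IL-12 and other inflammatory products.

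Values are MAS5 signals, the brightness of a probe set on the Affymetrix MG-U74Av2 array on a linear scale, scaled by the authors to the same trimmed mean on every array. A probe set was tested where its signal reached 200 in at least 2 of the 12 arrays, so some were tested through the arrays of 1 genotype alone. The test was limma on log2(signal + 50), with the arm as a block, and a probe set was called at a Benjamini-Hochberg adjusted p below 0.05 over all 7205 tested. Differences are knockout minus wild type on that scale, which understates changes of dim probe sets. The wild-type arrays with LPS and IL-6 stood apart from the other wild-type arrays. On the first principal component, which held 20.5% of the variance, the other 4 wild-type arrays lay between -19.22 and -14.45 and the 6 knockout arrays between 4.868 and 15.7, while these 2 lay at 5.627 and -3.333. Each also correlated slightly more closely with the knockout arrays (mean r 0.9465 and 0.9506) than with all remaining wild-type arrays, its partner with IL-6 included (0.9377 and 0.9464). The share of probe sets at 200 or more was 49.7% to 51.8% in the other wild-type arrays, 47.74% and 47.95% in these 2, and 47.38% to 49.09% in the knockout arrays. The part of these arrays in the results was not tested beyond leaving out the arm. Macrophage markers summed to signals of 386400 to 424800 per wild-type and 381400 to 485900 per knockout array, and 33 of 35 on the array reached 200 in at least 1 array. Of the neutrophil markers 11 of 17, and of the lymphocyte markers 13 of 19 (Cd3e, Cd8a and Cd79b among them), stayed below 200 in all 12 arrays.

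**Figure D1:**
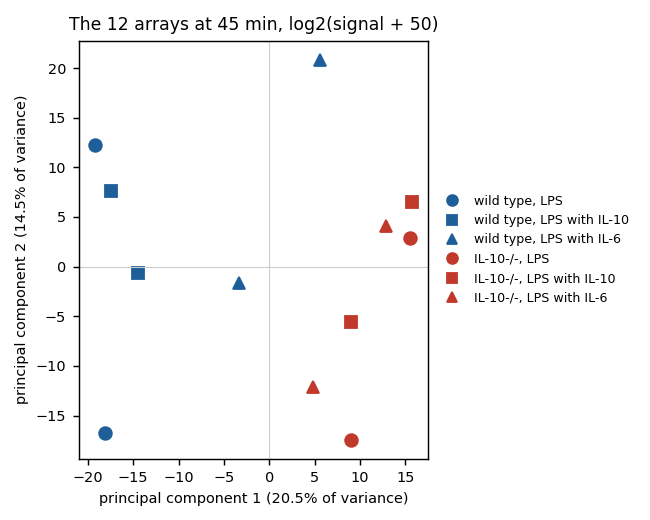
The 12 arrays at 45 min on the first 2 principal components of log2(signal + 50), with the percent of variance on each axis, coloured by genotype and shaped by arm. The wild-type arrays with LPS and IL-6 (blue triangles) lie to the right of the other 4 wild-type arrays, between them and most knockout arrays (red).

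The probe set of Il10 itself gave more signal in the knockout. It ranged from 2413 to 3845 (median 2667) in the 6 wild-type arrays and from 5858 to 10596 (median 8075) in the 6 knockout arrays. No arrays of the genotypes overlapped, and the difference was 1.41 ± 0.12 (SE, n = 6 against 6), 2.66-fold, with an adjusted p of 1.60e-06. The knockout exceeded wild type by 1.28 with LPS alone, 1.86 with added IL-10 and 1.09 with added IL-6. The 4 resting arrays, whose genotype is not given, read 208 to 605, below every stimulated array. Neither the part of the transcript that this probe set reads nor the deleted part is given in the sources used here, so the signal does not check the genotype labels and says nothing of IL-10 protein.

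Across the array, 226 of 7205 probe sets differed between the genotypes (3.14%), 123 higher (1.71%) and 103 lower (1.43%) in the knockout. At an unadjusted p below 0.05 there were 1119. All 226 had the same sign in the 3 arms, against 2469 of all 7205 tested, and 45 changed at least 2-fold, against 52 of all tested. The median size was 0.67 on the log2 scale, against 0.15 for all tested. The calls rest on the mean of these arms, so agreement in sign, here and with an arm left out, is partly set by the call. In 145 of the 226 the 6 arrays of one genotype lay wholly above or below the 6 of the other, which held for 200 of all 7205 probe sets tested (2.78%). With 1 probe set per gene, the one of highest mean signal, 168 of 5429 genes were called (3.09%), 96 higher and 72 lower. Without the arm with IL-6, whose wild-type arrays stood apart, 208 probe sets were called, 138 of them among the 226, and all 226 kept their direction. Without the arm with added IL-10 the count was 88, and with the 3 arms of a genotype and replicate number averaged first, 2 values against 2, it was 65. Of 53 called genes that the text describes by its naming rule, 21 lost the call without the arm with added IL-10, 25 with the arms averaged first, 19 in a fit over all 32 grouped arrays of the series and 7 without the arm with IL-6.

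Tested arm by arm, with 2 arrays against 2 and the spread pooled over the 6 groups, 57 probe sets were called with LPS alone (0.791%), 59 with added IL-10 (0.819%) and 34 with added IL-6 (0.472%). Those that rose numbered 41, 45 and 18. No probe set passed the test that the genotype difference varied between the arms (0.0%), although 555 had an unadjusted p below 0.05, so the counts of the arms are not shown to differ. The smallest adjusted p of that test was 0.138, held by Il1rn, Krt86 and Pspn. Il1rn, the secreted antagonist of the IL-1 receptor, read 1019.6 and 1069.7 in wild-type and 1266 and 1327 in knockout arrays with LPS alone. With added IL-10 it read 3226 and 3303 against 6885 and 6299.5, and with added IL-6 2717 and 2828 against 2351 and 2216. The knockout arrays were thus above wild type in the first 2 arms and below it with IL-6, by 0.30, 1.00 and -0.27. Of these, only the difference with added IL-10 was called within its arm (adjusted p = 0.002265).

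With each gene taken at its probe set of highest mean signal, among probe sets with 1 gene symbol, the 12 largest rises were led by Lpl and Gdf3. Lpl, the lipoprotein lipase that frees fatty acids from lipoproteins, ranged from 2022 to 2512 (median 2466) in wild type and 7821 to 8824 (median 8555) in the knockout. The genotypes were far apart in every arm, and the difference was 1.79 ± 0.082 (SE, n = 6 against 6), 3.46-fold, with an adjusted p of 1.13e-09. A second probe set of Lpl rose by 2.23 ± 0.18 (adjusted p = 1.34e-06). Cd5l, a secreted scavenger receptor protein that keeps macrophages alive, read 2536 to 3595 (median 3064) against 8005 to 10092 (median 9295), a 3.02-fold rise (1.60 ± 0.091, adjusted p = 1.61e-08). Folr2, the folate receptor beta of tissue macrophages, read 1099 to 1916 (median 1316) against 3515 to 6504 (median 4443) and rose 3.22-fold (1.69 ± 0.15, adjusted p = 2.41e-06). Neither gene had a wild-type array within the knockout range. Cd72, an inhibitory receptor best known on B cells, read 1403 to 1978 (median 1602) against 4473 to 5667 (median 5134), a rise of 1.59 ± 0.10 (adjusted p = 8.00e-08). Ly86, also called MD-1, pairs with the Toll-like receptor relative RP105, and it read 863 to 1085 (median 1027) against 2519 to 3274 (median 2690.2). Its rise was 1.43 ± 0.10 (adjusted p = 2.10e-07), again with no overlap. Gdf3, a growth factor of the TGF-beta family, was dim in wild type at 62.4 to 195 (median 70.0) and read 347 to 614 (median 441) in the knockout, a rise of 1.76 ± 0.23 (adjusted p = 2.69e-04). It was tested through its knockout arrays alone, since every wild-type array lay below 200. With a pseudocount of 200 the rise was 2.16-fold against 3.38-fold.

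Besides Il10, the rest of the 12 largest rises were Pam, Ell2, Atp7a, Cdkn1c and Postn, each with no overlap between the genotypes. Pam, the enzyme that amidates peptide hormones, rose by 1.54 ± 0.18, and Ell2, an elongation factor of RNA polymerase II, by 1.41 ± 0.12. Atp7a, a copper-transporting ATPase, rose by 1.37 ± 0.20, and Cdkn1c, the cell cycle inhibitor p57, by 1.29 ± 0.14. Postn, the matrix protein periostin, rose by 1.25 ± 0.20, from 92.8 to 197 (median 125) to 224 to 541 (median 386). Every wild-type array of Postn lay below 200, so it was tested through its knockout arrays alone. The adjusted p-values of these 5 by limma lay between 2.41e-06 for Ell2 and 0.00163 for Postn. The Postn call was lost without the arm with added IL-10 or with the arms averaged first (largest adjusted p 0.0572).

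**Figure D2:**
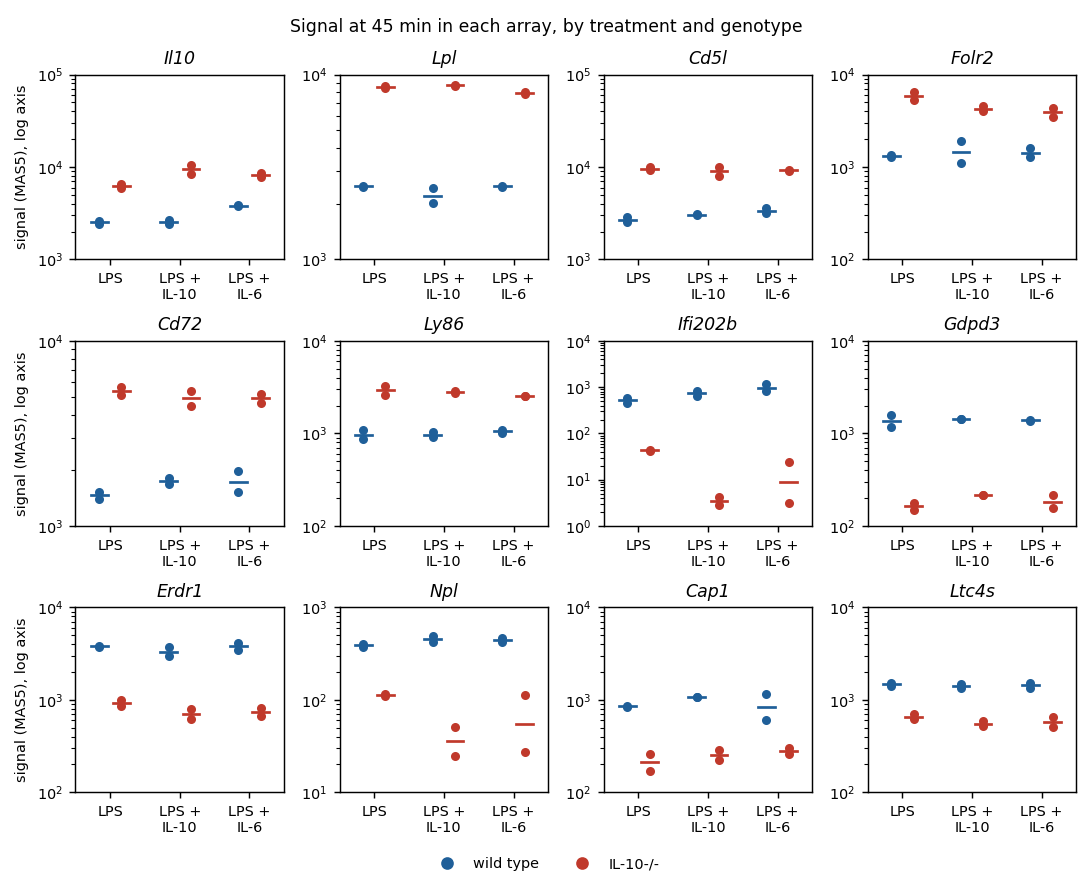
MAS5 signal on a log axis of 12 genes at 45 min in each of the 12 arrays (points) by treatment arm, with wild type in blue and IL-10-/- in red; the short lines are geometric means of the 2 arrays. Il10, Lpl, Cd5l, Folr2, Cd72 and Ly86 lie higher, and Ifi202b, Gdpd3, Erdr1, Npl, Cap1 and Ltc4s lower, in every IL-10-/- array than in any wild-type array.

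The deepest fall was in Ifi202b, a member of the interferon-inducible family of DNA-binding proteins on mouse chromosome 1. It ranged from 459.5 to 1169 (median 732) in wild type and only from 2.8 to 44.4 (median 14.1) in the knockout, where every array was below 50. Ifi202b was thus tested through its wild-type arrays alone. The difference was -3.51 ± 0.24 (SE, n = 6 against 6), 11.4-fold, with an adjusted p of 1.47e-07. Because the knockout signals are near the bottom of the scale, the fold depends on the pseudocount, being 29.6-fold with 10 and 4.24-fold with 200. Gdpd3, a glycerophosphodiester phosphodiesterase of lipid metabolism, read 1185 to 1588 (median 1416) against 149 to 217 (median 196) and was 6.11-fold lower (-2.61 ± 0.12, adjusted p = 1.13e-09). Erdr1, named as an erythroid differentiation regulator, read 2984 to 4142 (median 3714) against 619 to 987 (median 801), 4.43-fold lower (-2.15 ± 0.11, adjusted p = 3.12e-09). For both genes the lowest wild-type array was more than 3-fold above the highest knockout array. A dimmer probe set of Erdr1 had a difference of -0.53 ± 0.15 and did not pass (adjusted p = 0.0746).

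Npl, the lyase that breaks down sialic acid, read 376 to 489.8 (median 423) in wild type and 25.0 to 116 (median 80.9) in the knockout, a difference of -2.04 ± 0.23 (adjusted p = 4.75e-05; 2.33-fold with a pseudocount of 200 against 4.11-fold). Cap1, a regulator of actin turnover, read 606 to 1152 (median 967) against 170.1 to 304 (median 262) and fell by 1.70 ± 0.16 (adjusted p = 5.24e-06). Ltc4s, which makes leukotriene C4, read 1339.6 to 1527 (median 1446) against 514 to 694 (median 606), a difference of -1.21 ± 0.10 (adjusted p = 1.58e-06). Pla2g7, which inactivates platelet-activating factor, read 411 to 734 (median 576) against 218 to 317 (median 253), a difference of -1.003 ± 0.14 (adjusted p = 7.04e-04). Neither overlapped between the genotypes. Vwf, von Willebrand factor of clotting, differed by -0.99 ± 0.13, Stk11ip, a binding partner of the kinase LKB1, by -1.04 ± 0.15, and Fbxw4, an F-box protein, by -1.20 ± 0.19, with adjusted p-values from 4.16e-04 to 0.00121 and no overlap. A second probe set of Fbxw4 differed by only -0.26 ± 0.13 and did not pass (adjusted p = 0.36). Hsd11b1, which regenerates active glucocorticoid, differed by -1.08 ± 0.24 (adjusted p = 0.0181). The transcription factor Klf5 differed by -1.17 ± 0.27 (adjusted p = 0.0246; 1.48-fold with a pseudocount of 200 against 2.25-fold), with overlapping arrays. Npl, Hsd11b1 and Klf5 were tested through their wild-type arrays alone, since every knockout array lay below 200. Fbxw4 lost its call without the arm with added IL-10 (0.0524) and Stk11ip with the arms averaged first (0.0716), and Klf5 and Hsd11b1 lost theirs in both cases (0.101 to 0.15). The Klf5 call was lost on leaving out any of 7 single arrays (adjusted p up to 0.0691) and that of Hsd11b1 without replicate 2 of wild type with LPS alone (0.0512), and both were lost without the arm with IL-6 (0.121 and 0.0697).

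The largest difference of all lay in a probe set of the same interferon-inducible family that 4 gene symbols share, Mndal, Ifi211, Ifi205 and Ifi204. It read 145 to 327 (median 209) in wild type and 3139 to 5931 (median 4247) in the knockout, 17.2-fold higher (4.10 ± 0.16, adjusted p = 3.52e-10). Which of the 4 genes gives the signal cannot be told from the array. A probe set shared by Ifi203, Ifi203-ps and a predicted locus rose by 2.12 ± 0.27 (adjusted p = 2.59e-04), from 17.7 to 564 (median 194) to 541 to 1459.7 (median 820.4), with overlap. A further probe set that Ifi202b shares with a predicted locus, also tested through wild-type arrays alone, fell by 3.12 ± 0.25 on the log2 scale (adjusted p = 1.20e-06). Of the family's genes with a probe set of their own, Ifi204 rose, read at 1081 to 2185 (median 1368) in wild type and 2072 to 3495 (median 2574) in the knockout (0.88 ± 0.14, adjusted p = 0.00169). Ifi207 rose as well (mean signal 1042 in wild-type and 1689.6 in knockout arrays; log2 difference 0.67 ± 0.13, adjusted p = 0.00866). Members of this family are near-identical in places, so their probe sets may read each other's transcripts.

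Because Il10 lies on chromosome 1, as does the interferon-inducible family, the genes around it were counted in the gene order of RefSeq for the GRCm38.p6 assembly. Of the genes on that chromosome other than Il10, 21 of 296 tested were called (7.09%), 10 higher and 11 lower at the probe set of highest mean signal, the 11 including Ctse, against 142 of 5060 (2.81%) on all other chromosomes. Among the 50 genes on each side of Il10, 3 of 24 tested were called (12.5%), namely Cxcr4, Rassf5 and Ctse. Beyond those, within 200 genes on each side, the count was 5 of 84 (5.95%), and farther out it was 13 of 188 (6.91%). Of those 13, 10 lay after Il10 in the gene order (of 83 tested) and 3 before it (of 105). Ifi202b was the 373rd gene after Il10, Npl the 149th after it and Pam the 88th before it. Ctse, cathepsin E, only 9 genes away and described here after its values were seen, has 3 probe sets that disagreed. One read 129 to 278 (median 192) in wild type and 962 to 1576 (median 1335) in the knockout, a rise of 2.44 ± 0.14 (adjusted p = 1.51e-08). The other 2 fell by 0.81 ± 0.18 and 0.62 ± 0.15 on the log2 scale (adjusted p = 0.0204 and 0.0383), so apart from that count no direction is given for Ctse.

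The IL-10 receptor and its signalling chain did not differ past the threshold. Il10ra read 769 to 1384 (median 1199) in wild type and 999 to 1428 (median 1242) in the knockout (0.11 ± 0.11, adjusted p = 0.666), and Il10rb, Jak1, Tyk2 and Stat3 had differences between -0.21 and 0.054 (adjusted p from 0.485 to 0.925). Of 28 tested genes on the list of the IL-10 receptor, the JAK-STAT chain and genes that IL-10 induces, 3 rose and none fell (10.7% against 3.09% of all genes), with a median of 0.121 against -0.034 for all genes tested. Besides Il10 they were Fcgr1, the high-affinity Fc receptor for IgG, and Procr, the receptor of protein C. Fcgr1 read 2057 to 3147 (median 2623) against 3623 to 4604 (median 4281), with no overlap (0.71 ± 0.11, adjusted p = 0.00117). Procr read 230.2 to 872 (median 504) against 390.3 to 1561 (median 587), ranges that overlap, with the highest values of both genotypes in the arm with added IL-10 (0.59 ± 0.14, adjusted p = 0.0232; lost on leaving out any of 5 single arrays, with an adjusted p up to 0.0726). Procr also lost its call without the arm with added IL-10 and with the arms averaged first (0.253 and 0.131), and Fcgr1 in the fit over 32 arrays (0.0759).

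Socs3, the feedback inhibitor of cytokine receptors that STAT3 induces, was higher with an added cytokine than with LPS alone in every array of both genotypes, and did not pass the test between genotypes. With LPS alone it read 9200.2 and 10319 in wild type and 10242 and 10393 in the knockout. With added IL-10 the values were 22046 and 24737 against 23042 and 22764, and with added IL-6 17627 and 20909.8 against 16799 and 17194. The genotypes overlapped, and the difference was -0.04 ± 0.075 (adjusted p = 0.84). Nfil3, a leucine zipper repressor, differed by 0.13 ± 0.16 and Bcl3, a nuclear partner of NF-kappaB, by 0.25 ± 0.13 (adjusted p = 0.753 and 0.383). Il4ra, the IL-4 receptor chain, came nearest to the threshold, at 0.48 ± 0.13 (adjusted p = 0.0674).

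Of 13 tested inflammatory cytokines, 2 rose and none fell (15.4%, against 3.09% of all genes tested, 168 of 5429), and the median was 0.098. Inhba, which forms activin A, read 505 to 1084 (median 784) in wild type and 1071 to 2177 (median 1400.3) in the knockout (0.86 ± 0.16, adjusted p = 0.00441). Il1a, IL-1 alpha, read 1285 to 3572 (median 2819.6) against 2724 to 5473 (median 3722) (0.58 ± 0.13, adjusted p = 0.0199). Both overlapped, and the Il1a call was lost on leaving out any of 5 single arrays (adjusted p up to 0.0612). Both lost their call without the arm with added IL-10 (0.0971 for Inhba and 0.281 for Il1a), with the arms averaged first (0.0615 and 0.115) and in the fit over 32 arrays (0.0885 and 0.0819). Tnf, tumour necrosis factor, did not pass over the mean of the 3 arms. It read 21922 and 23219 in wild type and 27412 and 31563 in the knockout with LPS alone, 6410.2 and 6782 against 13091 and 10849 with added IL-10, and 20195 and 21975 against 18917 and 21274 with added IL-6. The knockout arrays were higher in the first 2 arms and overlapped wild type in the third, for a mean of 0.39 ± 0.12 (adjusted p = 0.107). Tested arm by arm, the Tnf difference was called with added IL-10 (0.85 ± 0.13, adjusted p = 0.00793) and not in the other 2 arms. Il1b and Il6 had differences of 0.10 ± 0.10 and 0.075 ± 0.23 (adjusted p = 0.696 and 0.903). Il12b, a subunit of IL-12, did not reach the signal needed for testing.

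Among 14 tested chemokines, 1 fell and none rose (7.14% against 3.09% of all genes), with a median of 0.054. Cxcl1, which draws neutrophils, read 17267 and 20509 in wild type against 13128 and 14314 in the knockout with LPS alone. With added IL-10 it read 8255 and 8063 against 5496 and 5968, and with added IL-6 15483 and 16847 against 7999 and 7922. The knockout was lower within every arm although the ranges over arms overlapped, and the difference was -0.66 ± 0.10, 1.58-fold (adjusted p = 7.54e-04). A second probe set fell by 0.57 ± 0.10 on the log2 scale (adjusted p = 0.00238). The call of Cxcl1 was lost in the fit over 32 arrays (0.0674). Cxcl2, its close relative, and Ccl3 had differences of 0.16 ± 0.08 and 0.35 ± 0.11 and did not pass (adjusted p = 0.37 and 0.0958).

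**Figure D3:**
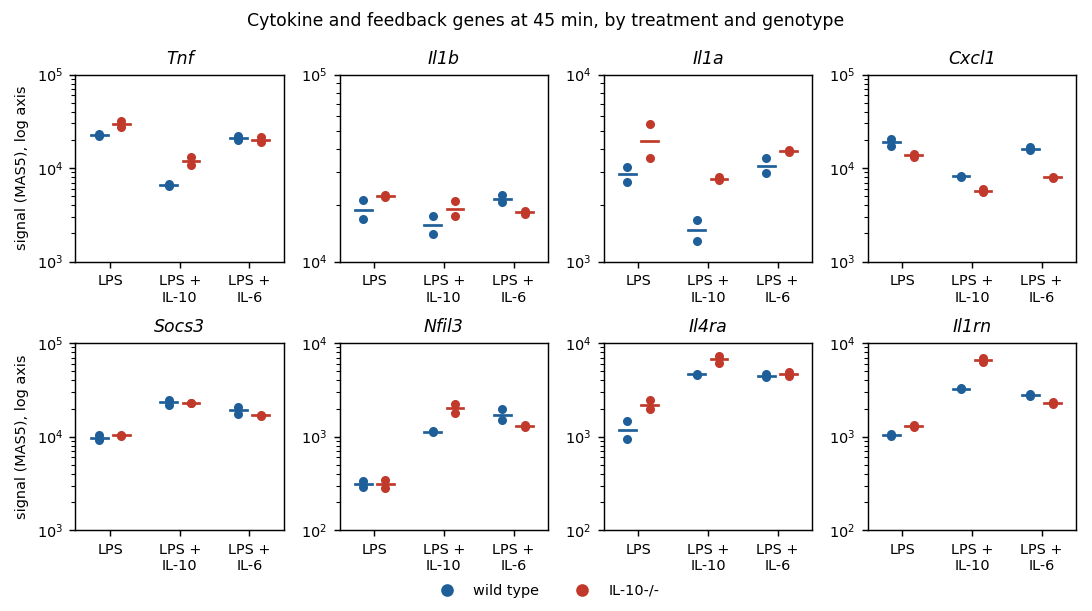
MAS5 signal on a log axis of 4 cytokine or chemokine genes and 4 feedback or IL-10-induced genes in each of the 12 arrays (points), by arm, wild type in blue and IL-10-/- in red, with geometric means as lines. Cxcl1 is lower in the knockout in each arm. For Socs3, Nfil3, Il4ra and Il1rn both genotypes lie lowest with LPS alone.

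Of 23 tested inflammatory enzymes, receptors and costimulatory molecules, 2 rose (Ly86 and Msr1) and 1 fell (Il1r2), which is 13.0% against 3.09% of all genes, with a median of 0.122. Msr1, the macrophage scavenger receptor for modified lipoproteins, read 291 to 635 (median 466) against 846 to 1184 (median 943) with no overlap (1.01 ± 0.15, adjusted p = 0.00106), while its second probe set differed by 0.51 ± 0.24 and did not pass (adjusted p = 0.326). Il1r2, the decoy receptor for IL-1, read 262 to 578 (median 563) against 214 to 359 (median 304) (-0.65 ± 0.16, adjusted p = 0.0363). That call was lost on leaving out any of 10 single arrays (adjusted p up to 0.096), and without the arm with added IL-10, with the arms averaged first and in the fit over 32 arrays (0.392, 0.148 and 0.185). Ptgs2, the inducible cyclooxygenase, had a mean difference of 0.44 ± 0.16 (adjusted p = 0.163). Tested arm by arm, it was called only with added IL-10 (1.07 ± 0.19, adjusted p = 0.0229).

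Within the NF-kappaB list, 1 of 26 tested genes was called (3.85%, near the 3.09% of all genes), and the median was 0.079. It was Nfkbib, the inhibitor IkB beta, which rose by 0.61 ± 0.13 (adjusted p = 0.0168). Its call was lost without replicate 2 of the knockout with IL-10 (adjusted p = 0.0511), without the arm with added IL-10 (0.196) and with the arms averaged first (0.202). Nfkbia, IkB alpha, read 16690.1 to 27924 (median 22878) against 21086 to 29446 (median 24920.3) and did not pass (0.18 ± 0.094, adjusted p = 0.373). Of 40 immediate early genes 3 rose and none fell (7.5% against 3.09%), with a median of 0.097. They were the matricellular growth factor Ccn2 (0.42 ± 0.089), the MAP kinase phosphatase Dusp2 (0.60 ± 0.13) and Phlda1 (0.59 ± 0.13), with adjusted p-values from 0.0141 to 0.0231. Dusp2 lost its call on leaving out any of 5 single arrays and Phlda1 on leaving out any of 6 (adjusted p up to 0.0562 and 0.065), and Ccn2 lost it without the arm with IL-6 (0.0742). All 3 lost it without the arm with added IL-10 (0.2 to 0.318) and with the arms averaged first (0.0624 to 0.238), and Ccn2 also in the fit over 32 arrays (0.65). Dusp1 and Fos had differences of 0.22 ± 0.067 and -0.20 ± 0.076 (adjusted p = 0.0957 and 0.184). For Dusp2 the difference was 0.76 with LPS alone, 1.02 with IL-10 and 0.016 with IL-6, and the test of a difference between arms did not pass (adjusted p = 0.222).

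Of 36 tested interferon-response genes 3 rose and 2 fell (13.9% against 3.09% of all genes), and the median was 0.204. Irf7, the regulator that amplifies type I interferon, rose with no overlap, from 136 to 364 (median 266) to 512 to 612 (median 529) (0.99 ± 0.16, adjusted p = 0.00136), while a dimmer probe set differed by 0.17 ± 0.16 and did not pass (adjusted p = 0.669). Ifi204 rose as given above. Ifit3, an antiviral protein, read 181 to 352 (median 263) against 366 to 598 (median 418) (0.67 ± 0.14, adjusted p = 0.0147). Its call was lost without replicate 1 of the knockout with LPS alone, without replicate 1 of the knockout with IL-10 (adjusted p up to 0.0525) and without the arm with IL-6 (0.0576). In the fit over 32 arrays Irf7, Ifi204 and Ifit3 all lost their call (0.203, 0.279 and 0.548). Ifi204 and Ifit3 lost it without the arm with added IL-10 as well (0.0783 and 0.0878), and Ifit3 with the arms averaged first (0.15). The falls were Ifi202b and Gbp2, an interferon-induced GTPase (mean signal 595 in wild-type and 358 in knockout arrays; log2 difference -0.64 ± 0.14, adjusted p = 0.0188, with overlap).

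The 250 bases before the start of Ifit3, Gbp2 and Ifi202b are shown because these interferon-induced genes moved in opposite directions and hold, or lack, the letters of an interferon-stimulated response element core. The sequences are from RefSeq, build GRCm38.p6, printed 5′ to 3′ on the strand of the gene. Capitals in Ifit3 and Gbp2 mark the response element core, searched on both strands as GAAA, any 2 bases, GAAA. Capitals in Ifi202b mark TTCNNNGAA, the letters of a gamma-activated site that STAT factors bind. Ifit3 lies at chr19:34583279-34583528 on the plus strand, Gbp2 at chr3:142620413-142620662 on the plus strand and Ifi202b at chr1:173982845-173983094 on the minus strand.
Ifit3: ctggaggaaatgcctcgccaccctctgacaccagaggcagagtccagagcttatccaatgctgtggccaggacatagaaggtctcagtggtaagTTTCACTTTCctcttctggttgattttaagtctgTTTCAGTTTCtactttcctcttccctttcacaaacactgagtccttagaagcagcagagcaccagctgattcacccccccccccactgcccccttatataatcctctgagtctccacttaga
Gbp2: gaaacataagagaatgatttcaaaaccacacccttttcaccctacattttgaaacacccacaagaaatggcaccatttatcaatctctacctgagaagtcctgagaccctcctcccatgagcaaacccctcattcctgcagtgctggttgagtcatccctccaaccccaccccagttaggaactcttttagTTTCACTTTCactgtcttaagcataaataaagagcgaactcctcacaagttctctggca
Ifi202b: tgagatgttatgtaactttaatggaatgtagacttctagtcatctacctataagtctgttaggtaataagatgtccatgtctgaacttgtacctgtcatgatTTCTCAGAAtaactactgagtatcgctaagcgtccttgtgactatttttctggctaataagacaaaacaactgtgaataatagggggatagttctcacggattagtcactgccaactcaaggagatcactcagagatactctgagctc
Ifit3, which was higher in the knockout, holds the response element core at 2 places, and Gbp2, which was lower, at 1. Ifi202b, which fell most, holds none in this window and 1 match to TTCNNNGAA. The window of Irf7, which was higher in the knockout and is not printed, holds no response element core either. Among the 4378 tested genes with a window in the table, 2.7% held the response element core and 5.92% held TTCNNNGAA. Among called genes the response element core was in 5 of 73 that rose (6.85%) and 3 of 52 that fell (5.77%), and TTCNNNGAA in 2 (2.74%) and 6 (11.5%). The cAMP response element TGACGTCA stood in 2.54% of tested windows, in 2 of the 73 and in 0 of the 52. A match of letters is a description and not a binding site, and the absence of one says only that the letters are not in the window.

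Of 33 tested genes that mark macrophages, 7 rose and none fell (21.2%, against 3.09% of all genes), and the list's median was 0.074. Among them were the 3 subunits of complement C1q, which tags debris and microbes for uptake. C1qa read 7175 to 11707 (median 9643) in wild type and 15987 to 25471 (median 17716) in the knockout (0.95 ± 0.13, adjusted p = 4.73e-04), and C1qb read 17032 to 20397 (median 19612) against 27448 to 36083 (median 34269) (0.77 ± 0.084, adjusted p = 4.16e-05). No array overlapped for either. C1qc rose by 0.57 ± 0.12 (adjusted p = 0.0157), with overlap. Aif1, the calcium-binding protein Iba1, rose by 0.85 ± 0.12 (adjusted p = 7.80e-04), Adgre1, which encodes the F4/80 antigen, by 0.55 ± 0.13 (adjusted p = 0.0258), and Fcgr1 and Msr1 as given above. The Aif1 call was lost with the arms averaged first (0.0564) and in the fit over 32 arrays (0.0912). A dimmer probe set of C1qb differed by 0.31 ± 0.14 and did not pass (adjusted p = 0.305). In these bulk samples a different share of cells of one kind and a different amount of RNA per cell cannot be told apart.

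Of 17 tested markers of stromal cells, 7 rose and none fell (41.2% against 3.09% of all genes), with a median of 0.133. Tagln, a smooth muscle actin-binding protein, read 671 to 994 (median 882) against 1294 to 1618 (median 1456) (0.72 ± 0.11, adjusted p = 8.08e-04). Acta2, smooth muscle actin, read 779 to 1101 (median 966) against 1392 to 1792 (median 1557) (0.69 ± 0.10, adjusted p = 8.49e-04). Neither overlapped. With the arms averaged first Tagln, Acta2 and Col5a2 lost their call (adjusted p = 0.0534, 0.0607 and 0.105), as they did in the fit over 32 arrays (0.231, 0.418 and 0.0879), and Col5a2 also without the arm with added IL-10 (0.115). The matrix genes Postn (tested through its knockout arrays alone), Col5a2 (0.63 ± 0.11), Col1a2 (0.54 ± 0.12), Col1a1 (0.53 ± 0.13) and Bgn (0.36 ± 0.094) made up the rest, of which the last 3 were called with overlapping arrays. The other probe sets of Col1a2, Col1a1 and Bgn did not pass, at -0.15 ± 0.14, 0.093 ± 0.12 and 0.27 ± 0.13. Summed over the 21 stromal markers on the array, the signal was 18220 to 20510 in wild-type and 22130 to 25060 in knockout arrays, and Lum, Thy1, Pdgfrb and Cdh11 stayed below 200 in all 12. The part of stromal cells in the other results was not tested. Ighm, immunoglobulin mu, was the only 1 of 6 tested lymphocyte markers that was called (16.7%), and it read 1265 to 1655 (median 1528) against 723 to 928 (median 805) (-0.82 ± 0.11, adjusted p = 2.77e-04), while its 2 dimmer probe sets did not pass. None of 5 neutrophil, 7 erythroid and mast cell or 8 dendritic cell markers tested was called.

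**Figure D4:**
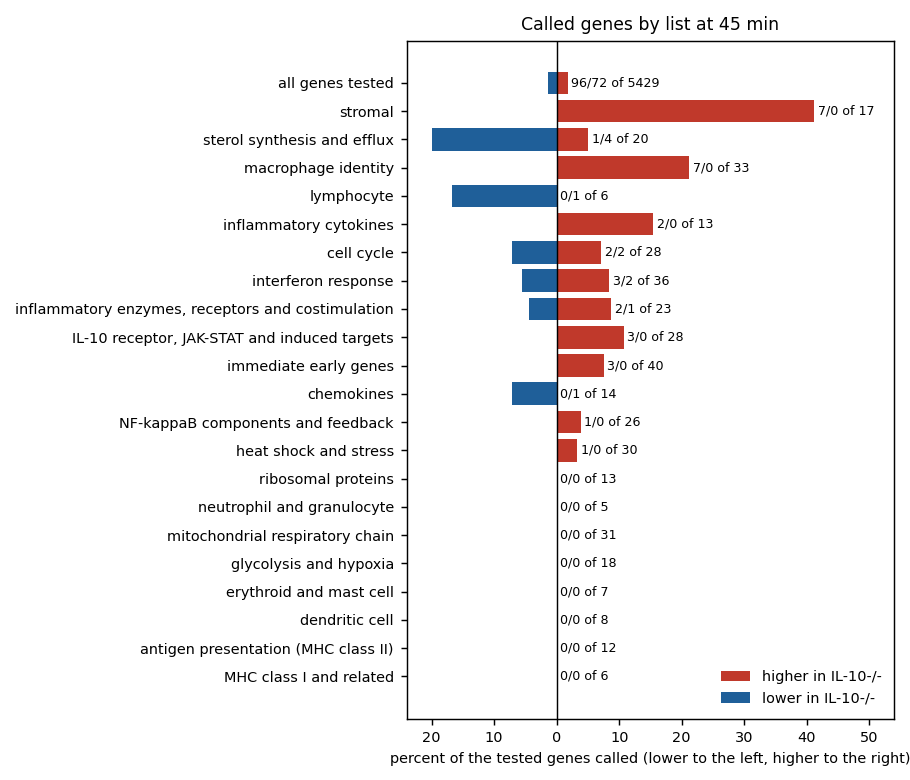
Percent of tested genes of each list called higher (red, to the right) or lower (blue, to the left) in IL-10-/- at 45 min, with counts higher/lower of tested; all genes tested are on top (96/72 of 5429). Stromal (7 of 17) and macrophage (7 of 33) markers were called higher only, sterol genes mainly lower (4 of 20), and 8 lists had no call.

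Of 20 tested genes of sterol synthesis and efflux, 4 fell and 1, Lpl, rose (25.0% against 3.09% of all genes), with a median of -0.206. Fdps, farnesyl diphosphate synthase, read 1753 to 2204 (median 1815) against 993 to 1390.1 (median 1114) (-0.67 ± 0.11, adjusted p = 0.00124). Its second probe set differed by -0.50 ± 0.13 and did not pass (adjusted p = 0.0581). Cyp51, lanosterol demethylase, read 241 to 298 (median 286) against 108 to 152 (median 136) (-0.85 ± 0.16, adjusted p = 0.00505). Every knockout array of Cyp51 lay below 200, so it was tested through its wild-type arrays alone. Sqle, squalene epoxidase, read 847 to 1140.3 (median 936) against 605 to 805 (median 648) (-0.49 ± 0.11, adjusted p = 0.018). Scd1, the desaturase that makes oleic acid, fell by 0.68 ± 0.17 on the log2 scale (adjusted p = 0.0363). The 4 genes did not overlap between the genotypes. Sqle lost its call without replicate 2 of wild type with IL-10 or replicate 1 of the knockout with LPS alone or with IL-10 (adjusted p up to 0.0521), and Cyp51 and Sqle lost theirs without the arm with IL-6 (0.0635 and 0.0911) and without the arm with added IL-10 (0.0783 and 0.201). With the arms averaged first Fdps, Cyp51 and Sqle all lost their call (0.104, 0.141 and 0.216), and Sqle did in the fit over 32 arrays (0.12).

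Of 28 cell cycle genes 2 rose and 2 fell (14.3% against 3.09% of all genes), with a median of 0.007. Pcna, the replication clamp, read 1899.5 to 3219.5 (median 2208) against 3489 to 3993 (median 3753) (0.71 ± 0.11, adjusted p = 0.00121), and Cdkn1a, the inhibitor p21, rose by 0.75 ± 0.18 (adjusted p = 0.026). A second probe set of Cdkn1a differed by 0.058 ± 0.10 and did not pass (adjusted p = 0.824). The mitotic genes Ccnb2, cyclin B2, and Cdc20, an activator of the anaphase-promoting complex, differed by -0.66 ± 0.11 and -0.56 ± 0.14 (adjusted p = 0.00188 and 0.0332), with no overlap. Cdkn1a lost its call on leaving out any of 6 single arrays and Cdc20 on leaving out any of 10 (adjusted p up to 0.0742 and 0.0908). With the arms averaged first all 4 lost their call (0.0514 to 0.257). Pcna, Cdkn1a and Cdc20 lost it without the arm with added IL-10 (0.0783 to 0.295), and Ccnb2, Cdkn1a and Cdc20 in the fit over 32 arrays (0.118 to 0.457). The heat shock list had 1 call of 30 (3.33%, near the 3.09% of all genes), the chaperone Hsp90aa1 (0.38 ± 0.10, adjusted p = 0.0429). That call was lost in 20 of 25 alternatives (adjusted p up to 0.341). Among these were leaving out any of 11 single arrays (adjusted p up to 0.121) and quantile normalization (0.0962). No gene was called among 12 of MHC class II, 6 of MHC class I, 18 of glycolysis and hypoxia, 13 ribosomal protein genes or 31 of the mitochondrial respiratory chain, whose list medians lay between -0.099 and 0.205.

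At 180 min the same genotypes could be compared in 2 arms, LPS alone and LPS with IL-10, with 4 arrays against 4. There, 87 of 6892 probe sets were called (1.26%), 52 higher and 35 lower, and leaving out single arrays moved that count between 23 and 137. Of the 226 probe sets called at 45 min, 214 were tested at 180 min, 177 had the same sign, 45 were called in the same direction and 0 in the opposite one. How often the sign agreed between the times over all probe sets was not counted. Lpl was still higher (2.14 ± 0.14, adjusted p = 2.54e-05), with 766 to 1127 in wild type against 3446 to 5807 in the knockout. So were Cd5l (1.73 ± 0.12), Folr2 (1.53 ± 0.12), Pam (1.52 ± 0.17) and Cdkn1c (1.48 ± 0.21), with adjusted p-values from 3.18e-05 to 0.00753. Erdr1, Gdpd3 and Cap1 were still lower, with differences of -2.60 ± 0.20, -1.67 ± 0.20 and -1.69 ± 0.27 (adjusted p from 6.96e-05 to 0.0161).

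The genotype difference itself changed with time in 206 of 7562 probe sets (2.72%), by the contrast of 180 min minus 45 min over the 2 arms that both times hold, and 29 of the 226 were among them. That contrast reuses 45 min arrays that gave the calls, so a shrinking difference in called genes is partly set by their choice. Among probe sets tested at both times, the median change was -0.33 for 118 called higher and 0.29 for 96 called lower. Ifi202b moved farthest apart. At 180 min it read 5686 to 7976 in wild type and 7.5 to 54.2 in the knockout, a difference of -6.54 ± 0.22 (adjusted p = 1.01e-07; genotype by time -3.29 ± 0.31, adjusted p = 9.18e-06). The resting arrays read 4.9 to 14.5. Il10 went from higher in the knockout at 45 min to no called difference at 180 min (-0.44 ± 0.19, adjusted p = 0.317), when its mean signals (n = 2 arrays a group) were 2983 in wild type and 1522 in the knockout with LPS alone, and 4461 and 4666 with added IL-10. The change was -2.01 ± 0.14 (adjusted p = 2.89e-07). Msr1, Fcgr1, Ifi204, Dusp2 and Procr, all called higher at 45 min, had differences between -0.17 and 0.032 at 180 min, none called there, and each passed the genotype by time test (adjusted p from 2.41e-04 to 0.0464). These are means over 2 arms that were not alike at 180 min, a difference between arms that was not tested at that time. With LPS alone the mean signal was lower in the knockout for all 5, for example 3287 against 5706 in wild type for Dusp2 and 691 against 1423 for Procr. With added IL-10 it was higher, 6494 against 4620 and 7218 against 3407. Ell2 and Ly86 kept their sign with smaller differences (0.56 ± 0.17 and 0.83 ± 0.14; adjusted p of the change = 7.31e-04 and 0.0324). Cxcl1, lower at 45 min, read 0.23 ± 0.21 at 180 min (adjusted p of the change = 0.00559), with mean signals of 38200 in the knockout and 21560 in wild type with LPS alone, and 9643 and 12420 with added IL-10.

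**Figure D5:**
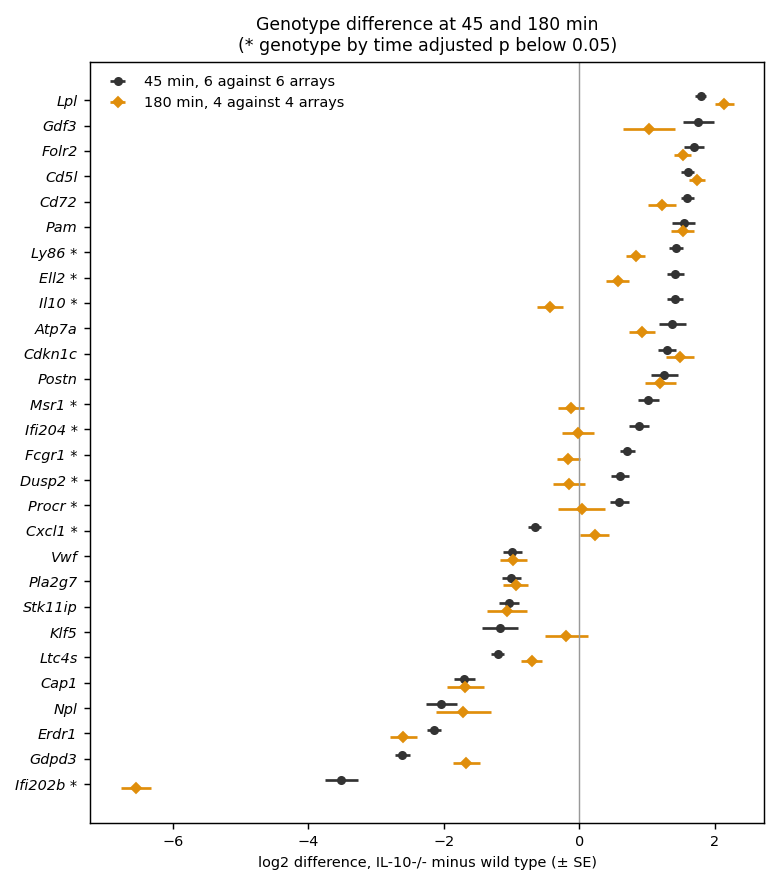
Log2 difference, IL-10-/- minus wild type, with its SE, at 45 min (dark circles, mean of 3 arms) and 180 min (orange diamonds, mean of 2 arms) for the genes with the largest rises and falls and 6 others. Most lie on the same side of 0 at both times; Ifi202b is farther below 0 at 180 min, and Il10, Msr1, Ifi204, Fcgr1, Dusp2 and Procr are near or below 0 by then.

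The third genotype of the series, IL-6-/-, had 5 arrays at 45 min, and its values are set beside the others for some of the genes above. Only 1 of them had LPS alone, so its arms are not balanced as in the other genotypes. Both knockouts share the same wild-type arrays. Of the 226 called probe sets, the IL-6-/- mean lay nearer wild type in 138 (61.1%) and nearer IL-10-/- in 88. Over all probe sets tested it lay nearer wild type in 46.0%. Lpl read 1880.1 to 2741 (median 2213), Folr2 968 to 1340.2 (median 1153) and Cd5l 2053 to 2866 (median 2227) in IL-6-/- arrays, all below the lowest IL-10-/- array. Ifi202b read 690.4 to 1233 (median 891) and Erdr1 3228 to 3933 (median 3239), within or near the wild-type range. Cap1 read 255 to 323 (median 266) and Npl 24.1 to 163 (median 135), below every wild-type array in both cases. C1qb read 27916 to 31953 (median 31282), above every wild-type array, and Gdpd3 read 4004 to 4588 (median 4172), above both other genotypes. Msr1 read 854 to 1341 (median 1185) and Cd72 2713 to 3977 (median 3354), above every wild-type array as well. For the interferon-inducible probe set shared by Mndal, Ifi211, Ifi205 and Ifi204, IL-6-/- arrays read 1278 to 3298 (median 2028), above every wild-type array and overlapping the lower end of the IL-10-/- range.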

How the data were processed

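The deposited table gives 1 linear intensity per probe set and array. The submitters' processing notes name MAS5, in a version not given in the sources used here. The trimmed mean of all 12 arrays lay between 500.31 and 500.37, so they were not scaled again. MAS5 detection calls were not used here, and depth has no counterpart on arrays, where the number of arrays limits the precision. Of 12488 probe sets, 66 controls were dropped.

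Differences were computed in R 4.3.3 with limma 3.58.1 (lmFit, eBayes with a trend) on log2(signal + 50), with arm and genotype as terms (8 residual degrees of freedom), 2-sided. Arms and the interaction came from a fit of 6 group means. The method was tested on simulated data. Genes were named from the platform table (10855 probe sets with 1 symbol, 396 with several, 1237 with none) and ordered by RefSeq GRCm38.p6. Windows came from RefSeq's promoter table, which held 4378 of 5429 tested genes.

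The text names the 12 largest rises and falls with 1 sign in all arms, up to 4 called members of each list, a set of cytokine and signalling genes, and the 6 smallest interaction p-values; further called list members are given by name where a list had few. The genes and lists were chosen with earlier results of these data known. Alternatives were the pseudocount, the signal filter, quantile normalization, the variance trend, other designs and blocks, and leaving out each array or an arm. Leaving out the arm with IL-6 was chosen after seeing the data. One array with no genotype in its title and one with conflicting times were placed in no group.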

Additional observations from a re-analysis of the deposited data

Results flagged for a closer look

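In 8 of 106 groups of 6 arrays of 1 genotype, tested for the 53 named called genes, 1 array lay far from the others by Dixon's criterion, which chance meets in about 1 in 20 groups. Lpl read 2022 in wild type with IL-10, replicate 2, against 2424 or more in the other 5 wild-type arrays. Il1r2 read 262 in wild type with IL-6, replicate 2, against 456 or more, and Fdps read 2204 in wild type with LPS alone, replicate 2, against 1849 or less. Among knockout arrays, replicate 2 with LPS alone was apart for 3 genes, with Nfkbib at 2289, Sqle at 805 and Cdkn1a at 18268, the highest value of each. With IL-10, Atp7a read 1167 in replicate 2 and Ifit3 598 in replicate 1, again the highest of the 6 knockout arrays. Leaving out the array that stood apart ended the call for Cdkn1a (adjusted p = 0.074) and for Ifit3, as given in the report.

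For 18 named genes the genotype difference at 180 min was unlike that at 45 min by limma's contrast over 10 groups (adjusted p below 0.05). Values here are the change in the log2 difference, knockout minus wild type, from 45 to 180 min. In 15 the change was negative. Among genes called higher at 45 min it was -2.01 for Il10, -1.33 for Msr1, -1.16 for Ifi204, -1.08 for Ell2, -1.04 for Dusp2, -0.934 for Fcgr1, -0.752 for Procr and -0.689 for Ly86. It was -3.29 for Ifi202b, which was lower at both times. Among genes with no call at 45 min the change was -2.48 for Il4ra, -1.84 for Il1rn, -1.62 for Bcl3, -1.31 for Dusp1, -1.07 for Nfil3 and -0.593 for Stat3, all of them on the IL-10 list of induced or signalling genes. These are means over both arms, and at 180 min the arms were not alike, which was not tested. With LPS alone at 180 min the mean signal (n = 2 arrays a group) of Il4ra was 13330 in wild type and 1103 in the knockout, and that of Il1rn 16340 and 3065. With added IL-10 it was 19400 and 18970 for Il4ra and 34030 and 34530 for Il1rn. Bcl3 read 3561 and 668.7 with LPS alone and 4227 and 3179 with IL-10, and Dusp1 8139 and 1287 against 10410 and 14920. Nfil3 read 573 and 204.6 with LPS alone and 557.5 and 523.5 with IL-10, and Stat3 3509 and 1659 against 4823 and 4874. The change was positive for Il6 at 1.79, Cxcl1 at 0.708 and Krt86, a keratin, at 0.685. The comparison at 180 min holds only the arms with LPS alone and with IL-10, while that at 45 min in this contrast uses the same 2 arms and their arrays. Those 45 min arrays also gave the calls, so a change toward 0 in called genes is partly set by their choice.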

How the results depend on the processing

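All 226 probe sets called at 45 min that remained in a test kept their direction under each of the 25 alternatives. The alternatives reuse the arrays that gave the calls, so this agreement is partly set in advance. The count of calls lay between 153 and 231 when single arrays were left out. It was 341 with a replicate block (the replicate number as a further term; all 226 among them; the check of these numbers is given last), 65 with the arms averaged per genotype and replicate number, 107 with 16 group means over 32 arrays, and 88 without the arm with added IL-10. The other alternatives gave 171 to 244, and quantile normalization moved the share of higher calls from 54.4% to 51.2%. In the fit of 16 group means the arms had 31 called with LPS alone, 35 with IL-10 and 17 with IL-6, against 57, 59 and 34. The test between arms called 0 under each alternative run. The 180 min count of 87 was 57 without a filter, 157 with a replicate block and 23 to 137 when single arrays were left out. Of 53 named called genes, 23 kept the call in every alternative and 13 lost it when some single array was left out. No named gene changed sign with a call. The cause of these shifts was not tested. Where signals fall to a few units, as for Ifi202b in the knockout, the fold depends on the pseudocount. The deviations of same-numbered replicates correlated positively in each of the pairs of groups (0.0193 to 0.29), though not over 0.1 in every pair, and on the second principal component (14.5% of the variance) every replicate 1 array lay at 2.86 to 20.84 and every replicate 2 array at -17.42 to -0.6234. The labels name no shared animal, batch or day, so the numbers were not used as pairs, and the replicate block with its 341 calls is an alternative.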

Other observations

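Probe sets that several gene symbols share hold further differences, described here after their values were seen. A probe set of the histone genes H2bc8, H2bc6 and H2bc4, which package DNA, read 1039 to 1421 (median 1170.5) in wild type and 2967 to 4016 (median 3507) in the knockout, 2.85-fold higher (1.51 ± 0.10 on the log2 scale, adjusted p = 1.35e-07), with a difference of 1.41 ± 0.20 at 180 min (adjusted p = 0.00781). A probe set shared by Tmem119 and Igfbp5 read 16.7 to 57.3 against 163 to 285 (1.74 ± 0.25, adjusted p = 7.10e-04), so it was tested through its knockout arrays alone. One shared by Thbs1, the matrix protein thrombospondin, and Pald1 read 4636 to 6926 against 8898 to 12081 (0.77 ± 0.11, adjusted p = 4.76e-04). Probe sets that share Noct, an enzyme of the daily clock, with Sgip1 and in part Cog6 were lower in the knockout. The brightest of them read 8621 to 12196 against 3870.3 to 6019.8 (-1.04 ± 0.12, adjusted p = 5.34e-05), and at 180 min its difference was -0.23 ± 0.17 (adjusted p = 0.551).

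Among called genes that the rule for named genes leaves out, and chosen after their values were seen, were Serpinb2, a plasminogen activator inhibitor, at -0.75 ± 0.13 (adjusted p = 0.00255) and Ly9, a lymphocyte and macrophage surface receptor, at 0.96 ± 0.11 (adjusted p = 9.26e-05). Both are on the chromosome of Il10. The 4 resting arrays, whose genotype is not given, read 4.9 to 14.5 for Ifi202b, 68.0 to 366 for Cap1 and 226 to 397 for Gdpd3, near or within the range of the IL-10-/- arrays at 45 min for Cap1 and Gdpd3.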
